A study of Mus musculus with 18 samples.

Results

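Chromatin contacts of 6 gene promoters were compared between erythrocytes and definitive endoderm (DE), 2 cell types in which opposite parts of the panel are on. The promoters of Eomes, Foxa2 and Lhx1 belong to transcription factor genes of the early endoderm, and those of Hba, Hbb and Slc25a37 to genes of red cells. The comparison took 6 of the 18 libraries of the series, which were all 3 replicates of promoter capture in either cell type, and read the contacts that each promoter made on its own chromosome by distance. DE was differentiated from ESC of strain 129/Sv//EV as embryoid bodies, which were moved on day 2 to N2B27 medium with 20 ng/ml ActivinA and 20 ng/ml EGF and collected on day 5. Erythrocytes were from spleens of C57BL/6 mice that received phenylhydrazine, listed as 3 doses of 40 mg/g given 12 h apart, and were taken on day 5. The spleens were dissociated by hand and filtered, and no sort is named, so other spleen cells may have been kept. The 2 groups thus differ in strain and in culture against tissue as well, and these cannot be told apart from cell type. The paper calls the replicates biological. Contacts and not transcripts were measured, so the labelled cell types could not be checked against marker genes.

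A promoter can be brought to a distant enhancer by folding of the chromatin fibre, and such contacts are often held within a domain whose boundaries bind CTCF. The alpha-globin enhancers lie in introns of the neighbouring Nprl3 gene and the beta-globin locus control region lies upstream of the embryonic globin gene Hbb-y. Both regions are classical examples of enhancers that meet their promoters in red cells. Late precursors of red cells have small, condensed nuclei before these are lost.

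NG Capture-C crosslinks nuclei, cuts the chromatin with the enzyme DpnII at GATC, ligates fragments that lie together and enriches for a chosen fragment, the viewpoint. Probes to Hba-a1 and Hba-a2 were read as 1 viewpoint, Hba, and those to Hbb-b1 and Hbb-b2 as 1 viewpoint, Hbb, since these gene copies are near identical. Coordinates are of mm9. The captured zones lay at chr9:118385066-118388645 for Eomes, chr2:147871364-147873704 for Foxa2, chr11:84337443-84339620 for Lhx1 and chr14:69902161-69904393 for Slc25a37. Those of the globin genes lay at chr11:32182317-32184781 and chr11:32194990-32197598 for Hba, and at chr7:110975292-110977138 and chr7:110961283-110963273 for Hbb. Upstream and downstream are given by the direction in which each gene is transcribed, and distances run from the nearest edge of the zone.

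A few DpnII fragments that carried the difference are printed to show what was ligated. For Hba and Hbb, the fragment was the one of 100 to 300 bases, over 5 kb from the zone, with the highest signal in erythrocytes among those past the threshold and higher there. For Eomes and Foxa2 the same was taken for DE. Letters follow the plus strand of mm9 and run from the middle of 1 GATC site to the middle of the next. Capitals mark matches, on either strand, to AGATAA (for GATA factors, also counted with T as the first letter, G as the last, or both), to TGTTTAC (forkhead factors, also counted with G as the letter before the last) and to CCACCC (Krueppel-like factors).
Hba fragment, chr11:32165890-32166169: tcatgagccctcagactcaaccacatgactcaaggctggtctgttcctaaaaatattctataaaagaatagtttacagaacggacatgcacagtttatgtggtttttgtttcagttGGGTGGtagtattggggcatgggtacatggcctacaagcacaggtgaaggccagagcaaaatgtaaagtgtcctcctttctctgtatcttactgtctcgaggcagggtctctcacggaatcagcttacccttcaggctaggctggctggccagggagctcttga
Hbb fragment, chr7:111007929-111008141: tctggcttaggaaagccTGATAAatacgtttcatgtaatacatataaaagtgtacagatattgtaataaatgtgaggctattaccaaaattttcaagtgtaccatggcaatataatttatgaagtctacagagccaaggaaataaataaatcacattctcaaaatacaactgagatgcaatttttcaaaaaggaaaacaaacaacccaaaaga
Eomes fragment, chr9:118302939-118303193: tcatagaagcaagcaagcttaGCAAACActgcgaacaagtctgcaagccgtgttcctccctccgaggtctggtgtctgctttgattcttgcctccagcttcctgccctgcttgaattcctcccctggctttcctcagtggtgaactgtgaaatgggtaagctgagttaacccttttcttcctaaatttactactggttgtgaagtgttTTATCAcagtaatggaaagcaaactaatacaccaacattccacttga
Foxa2 fragment, chr2:147886229-147886520: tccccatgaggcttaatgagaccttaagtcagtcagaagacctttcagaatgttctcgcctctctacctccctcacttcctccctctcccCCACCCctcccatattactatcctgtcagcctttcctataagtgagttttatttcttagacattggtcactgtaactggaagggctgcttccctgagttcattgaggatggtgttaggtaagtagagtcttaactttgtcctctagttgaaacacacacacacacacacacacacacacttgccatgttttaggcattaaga
The Hba fragment, inside Nprl3 and 16.3 kb upstream of the zone, held 1 Krueppel-like match, as did 16.8% of the 19922 chromosome 11 fragments within 10% of its length. The Hbb fragment, 30.9 kb upstream, held 1 GATA match, as did 41.1% of 24081 such fragments of chromosome 7. The Eomes fragment, 82.0 kb upstream, held 1 GATA match (46.0% of 19430 fragments of chromosome 9) and 1 forkhead match (7.78%). The Foxa2 fragment, 12.7 kb upstream, held 1 Krueppel-like match (15.2% of 29914 fragments of chromosome 2). The fragments chosen by this rule for Lhx1 and Slc25a37 held none of these letters. Matches of these shares are common, and they describe the letters alone.

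The signal of the Hba fragment was 93.0, 80.5 and 103 per 100000 contacts of the viewpoint's chromosome (cis contacts) in the DE libraries and 183, 397 and 373 in the erythrocyte libraries. That of the Hbb fragment was 61.0, 23.0 and 108 in DE and 322, 543 and 462 in erythrocytes. The ratios of the means were 3.44 and 6.93 (adjusted p = 0.0020 and 0.00033 in limma over single fragments). Among all single fragments tested, 24.1% were higher in erythrocytes at Hba and 37.7% at Hbb. The Eomes fragment gave 84.8, 117 and 113 in DE against 64.1, 20.0 and 0 in erythrocytes (adjusted p = 0.030), and the Foxa2 fragment 157, 130 and 163 against 29.9, 0 and 27.6 (adjusted p = 0.0028). Of all fragments tested, 21.8% and 29.6% were higher in DE at these viewpoints. In none of the 4 did the libraries of the cell types overlap, and the erythrocyte values of the last 2 fragments rested on 0 to 7 reads a library. A fragment was tested if the mean of the 2 group means was at least 40. The erythrocyte means of the last 2, 28.1 and 19.2, were below this, so they were tested only through DE and their direction was fixed.

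The DE libraries held 14885 to 192158 contacts per viewpoint, of which 50.4% to 65.9% were in cis (9298 to 126710). The erythrocyte libraries were shallower, with 3744 to 86404 contacts and 1265 to 24077 in cis. Erythrocyte replicate 2 stood apart with 66.2% to 79.4% in cis against 22.1% to 44.7% in replicates 1 and 3, and the cis share did not separate the cell types at any viewpoint (exact permutation p = 0.40 to 1.00). Erythrocyte replicate 3 stood apart in another way, since its share of cis contacts under 2 kb was 2.17 to 3.50 times the mean of the other two, against 1.04 to 1.31 times from 2 to 20 kb. Signal was therefore set per 100000 cis contacts, and results are given without replicate 2 where that matters. The widest 95% Wilson interval of a share was 1.86 percentage points in DE and 5.50 in erythrocytes. Fragments of 2 reads were in excess at Hba, with 1.02 to 1.29 for each fragment of 1 read against 0.0562 to 0.233 elsewhere, so its intervals are too narrow. A single read was worth 79.1 per 100000 cis contacts at Slc25a37 in erythrocyte replicate 3, the shallowest library there, and 0.789 to 10.8 in DE.

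**Figure D1:**
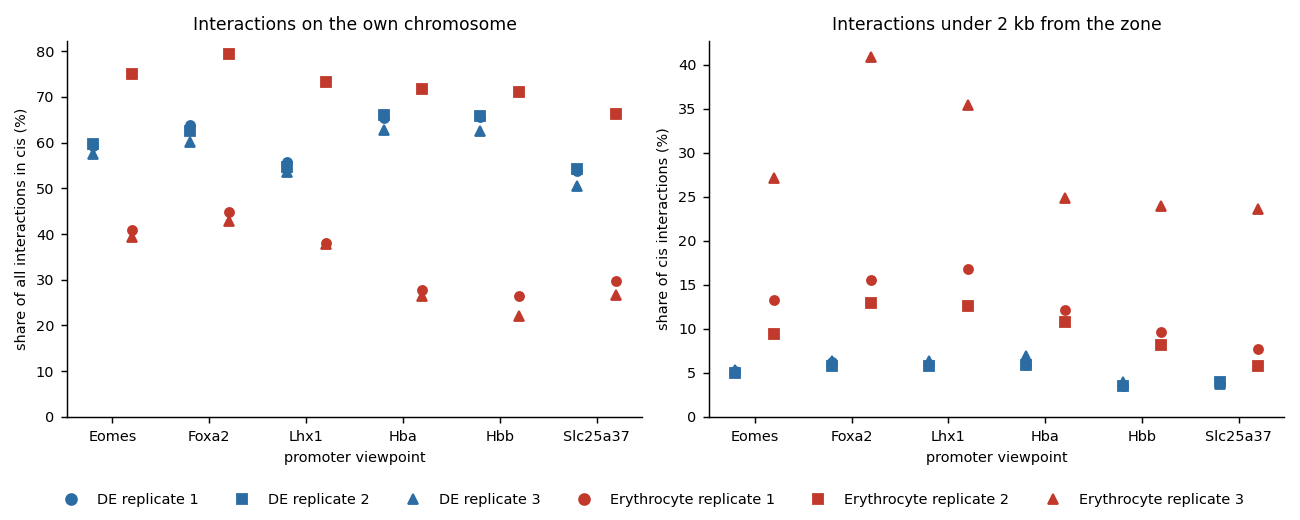
Share of all contacts in cis (left, percent) and share of cis contacts under 2 kb from the zone (right, percent) for each of the 6 libraries at each viewpoint. Erythrocyte replicate 2 lies above the other erythrocyte libraries in the first (66.2% to 79.4%), and replicate 3 above them in the second.

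At every promoter, erythrocytes held a larger part of their cis contacts close to the promoter and a smaller part at middle distance. Under 20 kb, all 3 erythrocyte libraries held a larger share of cis contacts than all 3 DE libraries at 6 of 6 viewpoints, and from 100 to 500 kb a smaller share at 6 of 6. The largest of the near differences was at Slc25a37, from 15.4% ± 0.780 in DE to 34.0% ± 13.3 in erythrocytes (SD, n = 3 each). Erythrocyte replicate 3 was the highest library at each viewpoint, and without it the near differences, 11.5 to 18.5 percentage points, were 5.83 at Eomes to 11.4 at Hbb. At the endoderm promoters the excess lay under 2 kb from the zone. That window held 5.19% in DE and 16.6% in erythrocytes at Eomes, 6.08% and 23.1% at Foxa2, and 6.06% and 21.6% at Lhx1. From 2 to 20 kb these promoters held 10.9% and 10.9%, 11.3% and 10.1%, and 12.4% and 12.7%. There the red cell promoters held more in erythrocytes (16.7% and 21.7% at Hba, 7.80% and 14.8% at Hbb, 11.6% and 21.6% at Slc25a37). From 100 to 500 kb, Lhx1 differed most, with 30.9%, 30.9% and 30.5% in DE against 11.6%, 12.8% and 7.89% in erythrocytes. At Eomes the same class held 28.0% ± 0.347 in DE and 12.1% ± 1.58 in erythrocytes, and at Foxa2 18.3% ± 0.448 and 7.05% ± 2.19. At the red cell genes it held 18.1% ± 0.254 and 6.15% ± 1.27 (Hba), 17.3% ± 0.146 and 5.47% ± 1.67 (Hbb), and 15.8% ± 0.128 and 5.38% ± 2.57 (Slc25a37). Of 36 shares tested over the 6 distance classes, 28 did not overlap between the cell types. Each of these had an exact two-sided permutation p of 0.10, the smallest that 3 against 3 allow, and 0.129 after Benjamini-Hochberg adjustment, so none could pass 0.05.

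From 20 to 100 kb the endoderm promoters held less in erythrocytes, and Hbb and Slc25a37 held more. Eomes, Foxa2 and Lhx1 held a smaller share in erythrocytes, at 8.38% ± 0.942, 6.71% ± 1.49 and 8.43% ± 1.96 against 15.3% ± 0.481, 15.5% ± 0.364 and 16.3% ± 0.379 in DE. Hbb held 8.73%, 8.54% and 8.39% in DE and 18.9%, 31.2% and 16.4% in erythrocytes, and Slc25a37 held 13.1%, 13.1% and 12.3% against 21.4%, 25.3% and 17.0%. The 3 erythrocyte libraries lay above all DE libraries at both, and replicate 2 was the highest at both. Hba held 15.6% ± 0.594 and 19.0% ± 3.95, and its libraries overlapped. Within each library, the mean share of the 3 red cell promoters minus that of the 3 endoderm promoters was -3.36 ± 0.266 percentage points in DE and 12.9 ± 3.97 in erythrocytes. The difference of 16.3 points had an exact permutation p of 0.10 (0.12 adjusted over the 6 classes), and without erythrocyte replicate 2 it was 14.05.

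From 500 kb to 2 Mb the 3 red cell promoters and Foxa2 held less in erythrocytes. In this class the Hbb promoter held 29.6% ± 0.148 of its cis contacts in DE and 4.93% ± 1.30 in erythrocytes, the widest gap of the 36. Hba went from 13.3% ± 0.150 to 4.21% ± 1.45 and Slc25a37 from 15.9% ± 0.187 to 6.02% ± 1.55. Foxa2 went from 14.5% ± 0.159 to 7.07% ± 1.70, whereas the libraries overlapped at Eomes and Lhx1. The overlap at both came from erythrocyte replicate 2 (12.5% at Eomes and 10.2% at Lhx1), and without it both promoters also held less in erythrocytes (differences of -3.41 and -2.14 points, with no overlap). At Lhx1 the sign was not stable. The difference there was 0.351 without erythrocyte replicate 3, and 1.04 with the total taken beyond 20 kb. The red cell minus endoderm difference was 7.84 ± 0.0827 points in DE and -3.23 ± 1.10 in erythrocytes here (exact permutation p = 0.10, 0.12 adjusted). Its change from DE to erythrocytes was also without overlap from 100 to 500 kb (4.31 points), from 2 to 10 Mb (-5.84) and at 10 Mb and farther (-6.09). Each had the same p, whereas under 20 kb the libraries overlapped (2.39 points, exact permutation p = 0.30). From 2 to 10 Mb, Eomes and Lhx1 held more in erythrocytes without overlap and Hba held less. At 10 Mb and farther, Eomes, Foxa2, Lhx1 and Hba held more in erythrocytes with no overlap (25.2% against 17.0% at Eomes, 33.9% against 24.1% at Foxa2, 26.4% against 18.0% at Lhx1, 27.3% against 21.01% at Hba). The difference at Hba was 6.27 points, 3.11 without erythrocyte replicate 1, and -2.58 when the share was taken of all contacts. Hbb and Slc25a37 overlapped at this distance. At Hbb the overlap came from erythrocyte replicate 2 (21.2%), and the difference of 4.96 points was 8.61 without it, with no overlap, and 1.58 without replicate 1.

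**Figure D2:**
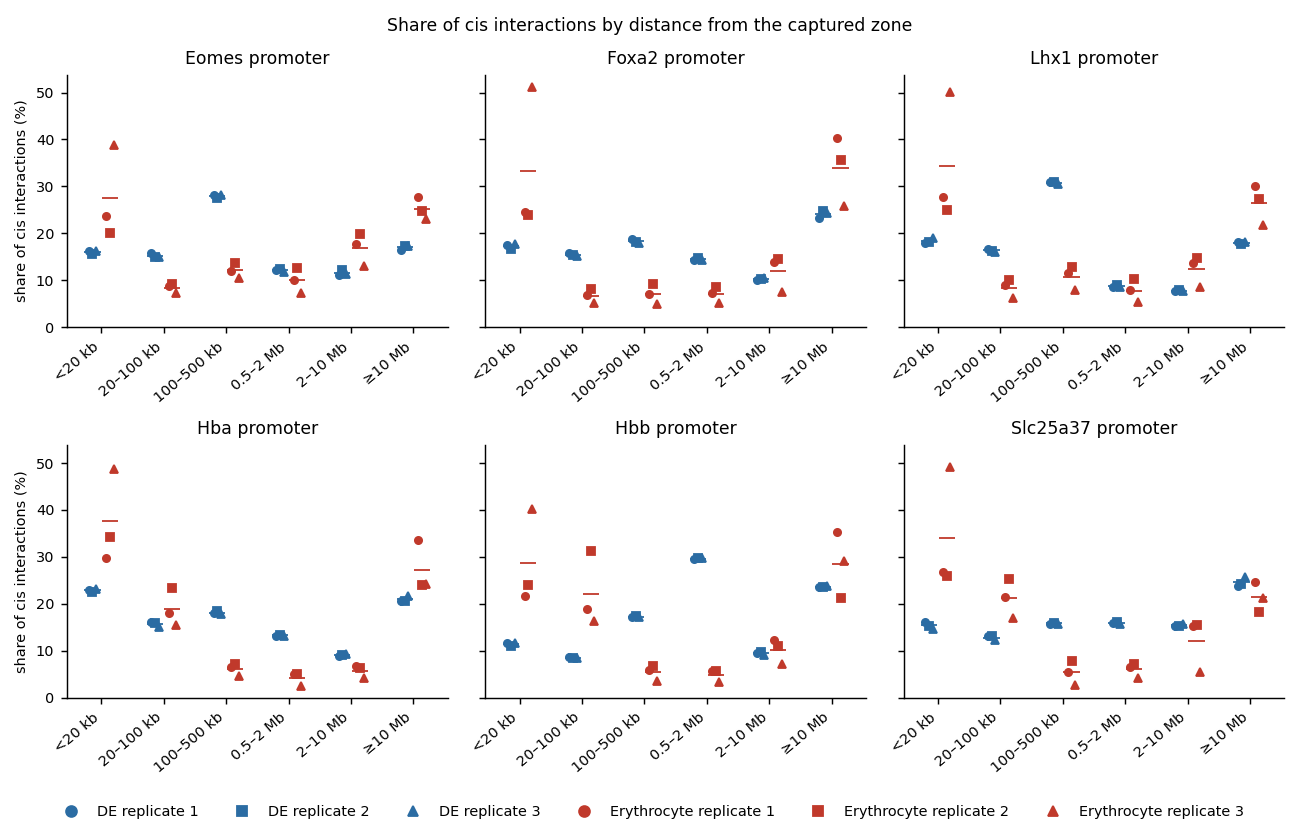
Share of cis contacts (percent) in 6 distance classes for each viewpoint, with points for the 3 libraries of each cell type and short bars for their means. From 100 to 500 kb every erythrocyte library lies below every DE library at all 6 viewpoints, and from 20 to 100 kb the red cell promoters Hbb and Slc25a37 lie above.

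The side on which contacts lay also differed. This split was added after the values were seen, and it is a ratio within a library, so the scaling does not enter. Of contacts 5 to 100 kb away, the upstream flank took 57.1%, 57.2% and 57.4% in DE and 80.8%, 83.9% and 84.2% in erythrocytes at Hba. At Hbb it took 59.5%, 56.5% and 52.8% against 77.2%, 79.8% and 78.9%, and at Slc25a37 49.2% ± 0.813 against 59.3% ± 2.61. Eomes and Lhx1 went the other way, from 69.6% ± 0.271 to 55.1% ± 2.10 and from 64.3% ± 0.947 to 51.0% ± 2.63. Foxa2 overlapped at this distance (51.2% and 48.6%, exact permutation p = 0.40).

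From 100 to 500 kb the endoderm promoters of DE had a strongly uneven pair of flanks that was nearer to even in erythrocytes. The upstream share went from 81.4% ± 1.07 to 57.0% ± 2.78 at Eomes, from 80.2% ± 0.858 to 57.8% ± 2.56 at Lhx1 and from 23.3% ± 0.366 to 51.7% ± 6.71 at Foxa2, whose contacts in DE lay mainly downstream. At Hba, Hbb and Slc25a37 it went from 56.5% to 67.1%, from 50.4% to 61.4% and from 49.4% to 60.3%. Of 12 such comparisons 11 had libraries that did not overlap, each with an exact permutation p of 0.10 (0.109 adjusted), the least that this design allows.

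Single windows of 5 kb were then tested with limma on log2 of the signal per 100000 cis contacts plus 50. A fold on this scale is smaller than the ratio of means for weak windows. A window entered if the mean of the 2 group means was at least 40, so a window that is strong in 1 cell type only can enter through that cell type. At an adjusted p under 0.05, 42.9% of 212 windows were called at Eomes (6 higher in erythrocytes and 85 higher in DE), 44.9% of 187 at Foxa2 (2 and 82) and 37.0% of 189 at Lhx1 (4 and 66). At Hba 79.0% of 210 were called (15 and 151), at Hbb 79.3% of 324 (17 and 240) and at Slc25a37 40.5% of 185 (13 and 62). By direction, the share called higher in erythrocytes was 2.83%, 1.07%, 2.12%, 7.14%, 5.25% and 7.03% in this order of viewpoints, and the share higher in DE 40.1%, 43.9%, 34.9%, 71.9%, 74.1% and 33.5%.

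Of the windows higher in DE, 10 at Eomes, 37 at Foxa2, 11 at Lhx1, 101 at Hba, 220 at Hbb and 54 at Slc25a37 had an erythrocyte mean under 40. These could be tested only through DE, so their direction was fixed by the filter. The same held toward erythrocytes for 3 windows at Eomes, 2 at Lhx1, 1 at Hba, 6 at Hbb and 1 at Slc25a37. Their DE mean was under 40, so they could be tested only through erythrocytes.

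The split of these calls changed with the scaling and with the size of the tested unit. The median log2 difference of the windows, erythrocytes minus DE, was -0.50, -0.73, -0.62, -0.87, -1.31 and -0.79. TMM scaling, which centres the windows on each other, moved it to -0.02, -0.13, -0.07, -0.22, -0.85 and -0.62, and the calls higher in erythrocytes and in DE became 28 and 33 at Eomes, 8 and 24 at Foxa2, 11 and 30 at Lhx1, 34 and 39 at Hba, 25 and 143 at Hbb and 14 and 23 at Slc25a37. With DESeq2 size factors they were 27 and 40, 4 and 25, 10 and 32, 45 and 22, 33 and 122, and 10 and 17 in the same order, so that at Hba more windows were higher in erythrocytes. Single DpnII fragments, scaled per cis contact as before, gave 9 higher in erythrocytes and 52 in DE at Eomes, 10 and 66 at Foxa2, 9 and 73 at Lhx1, 66 and 26 at Hba, 78 and 4 at Hbb and 50 and 0 at Slc25a37. At the red cell promoters most calls among single fragments thus lay toward erythrocytes (at Slc25a37 there were 0 toward DE even without adjustment at 0.05, and limma was the tool run on fragments). The filter of 40 was applied to each fragment, so the tested set was another one, with medians of 0.23 at Hba, 0.56 at Hbb and 0.53 at Slc25a37. Fragments strong only in erythrocytes could enter through that cell type, and how many did was not counted. Differences below are per cis contact, and where it helps they are also given relative to the median of the viewpoint. Scaling to all contacts, cis and trans together, gave 0 windows higher in erythrocytes at Hba in limma (0 also at an unadjusted p under 0.05; no other tool was run with it), 8 at Hbb and 2 at Slc25a37, against 15, 17 and 13 per cis contact.

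**Figure D3:**
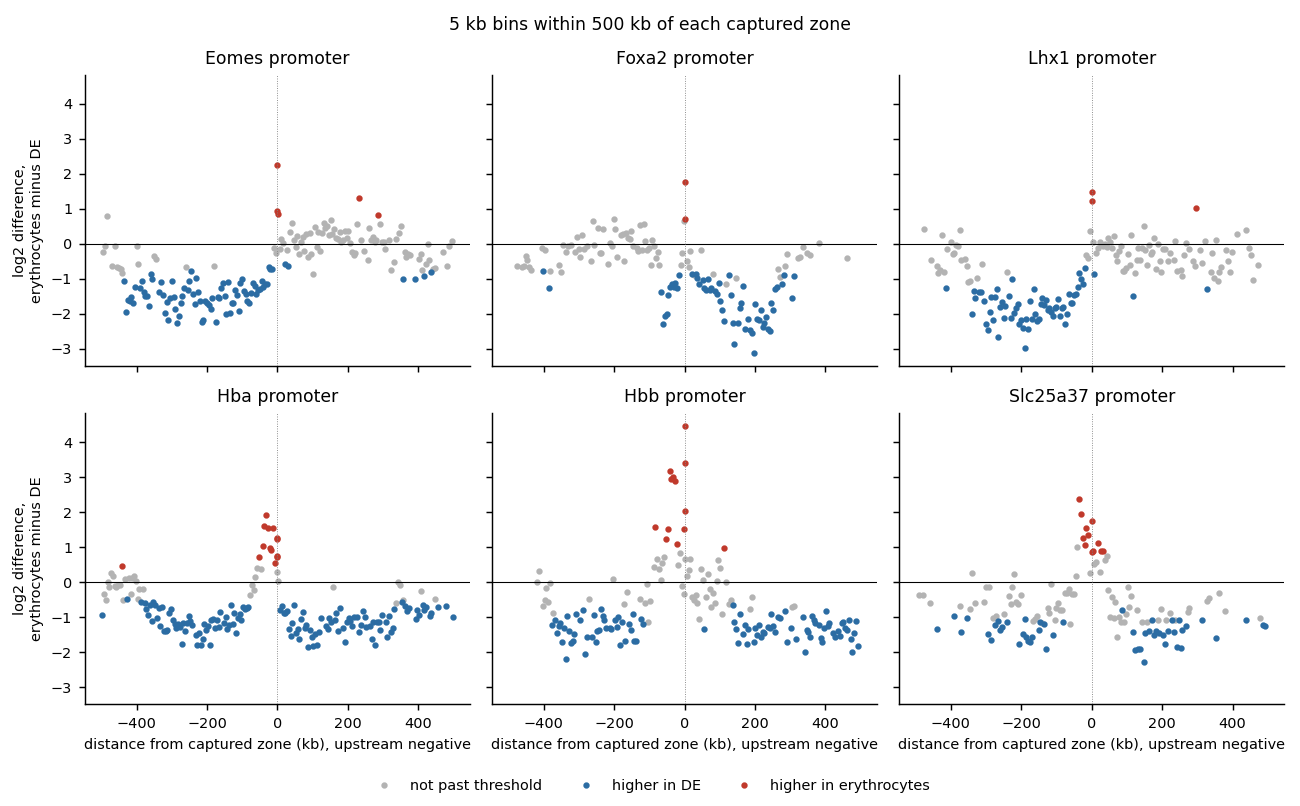
Log2 difference (erythrocytes minus DE, signal per 100000 cis contacts plus 50) of each 5 kb window against its distance from the captured zone in kb (upstream negative, within 500 kb), with windows past the adjusted p threshold in blue (higher in DE) or red (higher in erythrocytes). Windows upstream of Eomes and Lhx1 and downstream of Foxa2 lie below 0 over wide stretches, and most red windows at Hba, Hbb and Slc25a37 lie within 100 kb of the promoter.

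Hba, the viewpoint on the alpha-globin genes, met the gene that holds its enhancers more often in erythrocytes. Nprl3, which encodes a subunit of the GATOR1 complex, gave a signal of 6121, 6031 and 5529 in DE and 13839, 18939 and 13066 in erythrocytes. All erythrocyte libraries were above all DE libraries, replicate 2 was the highest, and the ratio of the means was 2.59 (2.28 without that replicate). On the log2 scale the difference was 1.35 ± 0.24 (SE, adjusted p = 0.00033). This was 2.22 above the median of all windows of the viewpoint, while upstream windows from 20 to 100 kb had a median of 0.28. Scaled to all contacts the difference at Nprl3 was 0.57 (adjusted p = 0.30). Under that scaling each of the higher calls in erythrocytes among the 5 kb windows and the regions first planned at Hba was lost.

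Windows of 4 kb, 5 in all, were placed at the distances that name the alpha-globin enhancers (31, 26, 21, 12 and 8 kb). Measured from Hba-x, the embryonic zeta-globin gene from which these sites are counted, 5 of 5 were higher in erythrocytes, with a median log2 difference of 1.51 against -0.87 over all windows of the viewpoint. The latter median covers all distances. Nearer by, upstream 5 kb windows had medians of 0.76 under 20 kb (4 of 5 higher in erythrocytes) and 0.28 from 20 to 100 kb (6 of 16). This origin was chosen after the values were seen, and the windows from it were fitted per cis contact only, not scaled to all contacts. The site at 31 kb gave 295, 314 and 286 in DE and 1312, 1595 and 1371 in erythrocytes, a ratio of 4.78 (log2 2.08 ± 0.17, adjusted p = 2.4e-06), and none of its libraries overlapped. The site at 26 kb had a ratio of 3.33 (log2 1.63 ± 0.23), the site at 8 kb 3.01 (1.51 ± 0.23), the site at 12 kb 2.80 (1.39 ± 0.19) and the site at 21 kb 2.59 (1.25 ± 0.24). Counted from Hba-a1, as first planned, 4 of 5 windows were higher in erythrocytes (median 0.94), and the one at 8 kb was not past the threshold (0.11, adjusted p = 0.66). Over 20 kb away, the 5 kb window with the largest difference toward erythrocytes was chr11:32145001-32150000 in Nprl3. It stood in a run of 5 called windows and had a ratio of 4.13 (558, 593 and 545 against 2243, 2897 and 1865).

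Of the 12 listed genes around Hba that were tested, 4 were higher in erythrocytes, 5 were higher in DE and 3 were not past the threshold, with a median of -0.06. Of all windows of the viewpoint 7.14% were higher in erythrocytes and 71.9% in DE, with a median of -0.87. Besides Nprl3, the DNA glycosylase gene Mpg, which overlaps it, rose by 0.51 (adjusted p = 0.027, but -0.21 scaled to all contacts), and the theta-globin genes Hbq1a and Hbq1b by 0.97 and 0.87 (adjusted p = 0.0041 and 0.0075). Hbq1a and Hbq1b lie next to the captured zones, where erythrocyte replicate 3 stood apart, and without it their differences were 0.66 and 0.61. Hba-x was at 0.28 (adjusted p = 0.27), and Rhbdf1, an inactive rhomboid gene, and Snrnp25, of the minor spliceosome, were at -0.03 and -0.08 (adjusted p = 0.91 and 0.79), though under TMM scaling both were called higher in erythrocytes (1.16 and 1.03, adjusted p = 0.00035 and 0.0048). Polr3k lies on another chromosome in mm9 and was not measured in cis.

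Downstream of the alpha-globin genes the order was the reverse. Sh3pxd2b, an adaptor of invadopodia, gave 3449, 3386 and 3286 in DE and 835, 1020 and 807 in erythrocytes, which was 3.80 times as much in DE (log2 -1.88 ± 0.19, adjusted p = 1.7e-05). The kinase gene Stk10 gave 2015, 2020 and 1911 against 432, 303 and 272, or 5.90 times as much (-2.42 ± 0.20, adjusted p = 3.6e-06). Ubtd2 was at -1.87 and Fbxw11, an F-box gene, at -1.31, and Il9r on the upstream side at -0.82. TMM scaling took the calls of Il9r (0.34) and Fbxw11 (-0.15). From 20 to 100 kb, 16 of 16 downstream windows were higher in DE (2 of them tested only through DE). Upstream, 6 of 16 windows were higher in erythrocytes and 4 in DE.

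At Hbb, whose genes encode adult beta globins, the locus control region had the largest difference toward erythrocytes among the listed genes and elements. The 30 kb upstream of Hbb-y (chr7:111001755-111031754) gave 2115, 1867 and 1861 in DE and 10976, 19695 and 11743 in erythrocytes. The erythrocyte libraries were all far above those of DE and replicate 2 was again the highest, with a ratio of means of 7.26 (5.83 without it). The log2 difference was 2.78 ± 0.31 (adjusted p = 9.7e-05), or 4.09 above the median of the viewpoint, and 1.89 (adjusted p = 0.011) when scaled to all contacts. That median covers all distances, and upstream windows from 20 to 100 kb had a median of 1.09 (8 of 15 higher in erythrocytes). Within the control region, chr7:111020001-111025000 gave 224, 161 and 215 against 1583, 3049 and 2127, a ratio of 11.3.

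The 6 listed genes around Hbb included 2 that were higher in DE and 4 that were not past the threshold, with a median of -0.29. Over all windows the median was -1.31 and 74.1% were higher in DE. Hbb-y and Hbb-bh1, the embryonic beta-like genes between the adult genes and the control region, were at 0.75 and 0.27 (adjusted p = 0.089 and 0.46). Stim1, the calcium sensor of the endoplasmic reticulum, was at -1.75 (adjusted p = 0.0068) and Trim30a at -1.60 (0.0011), and both were not past the threshold under TMM scaling.

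The beta-globin genes lie among olfactory receptor genes, which are silent outside the nose. Of the 50 receptor genes within 500 kb, 37 were higher in DE, 1 was higher in erythrocytes and 12 were not past the threshold, with a median of -1.20, close to the -1.31 of all windows, of which 74.1% were higher in DE. For 26 of the 37 the erythrocyte mean was under 40, so they were tested only through DE. Olfr608 had a signal of 122, 155 and 118 in DE and 0 in every erythrocyte library, at least 6.05-fold lower by a floor of 3 reads over the group. The single receptor gene that was higher in erythrocytes was Olfr66 (244, 253 and 333 against 659, 1399 and 416, log2 1.27 ± 0.42, adjusted p = 0.018), and its measured span overlaps the end of the 30 kb window of the control region. From 500 kb to 2 Mb downstream, 131 of the 132 windows that were higher in DE could be tested only through DE. The named windows there rested on 1 erythrocyte read each, as at chr7:110230001-110235000 over Olfr584 (217, 172 and 237 in DE, and 14.7, 0 and 0 in erythrocytes).

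Some fragments at Hbb were read in erythrocytes and in no DE library. Within 100 kb, 282 fragments had at least 10 reads in either cell type, and 16 of them had these in erythrocytes and none in any DE library. The same held for 3 of 363 at Slc25a37 and 0 at the other viewpoints, and for 3 beyond 100 kb at Hba. In the opposite direction, with at least 10 DE reads and none in erythrocytes, there were 17 at Eomes, 31 at Foxa2, 35 at Lhx1, 23 at Hba, 5 at Hbb and 27 at Slc25a37. Of the 16 at Hbb, 13 also had none in ESC, which share the strain of DE. The 16 carried 8.01% of the erythrocyte reads within 100 kb, led by chr7:110959283-110961282, next to the zone, with 95, 36 and 127 reads. The part of strain in this was not tested. Without the 16 fragments the control region was at 2.82 (adjusted p = 9.3e-05).

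Slc25a37 encodes mitoferrin-1, which carries iron into mitochondria for haem synthesis. Over 20 kb away, its largest difference toward erythrocytes was at chr14:69940001-69945000, 35.6 kb upstream and 10.2 kb from the nucleotidase gene Entpd4. This window gave 496, 619 and 704 in DE and 3162, 3755 and 3162 in erythrocytes. Windows were named only where the libraries did not overlap, and the ratio here was 5.54 (log2 2.38 ± 0.20, adjusted p = 0.00074). A window 32.2 kb downstream, chr14:69865001-69870000, in the body of the gene, gave 585, 677 and 582 against 1063, 1534 and 1028, a ratio of 1.97. Entpd4 itself was at -0.36 (adjusted p = 0.15).

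**Figure D4:**
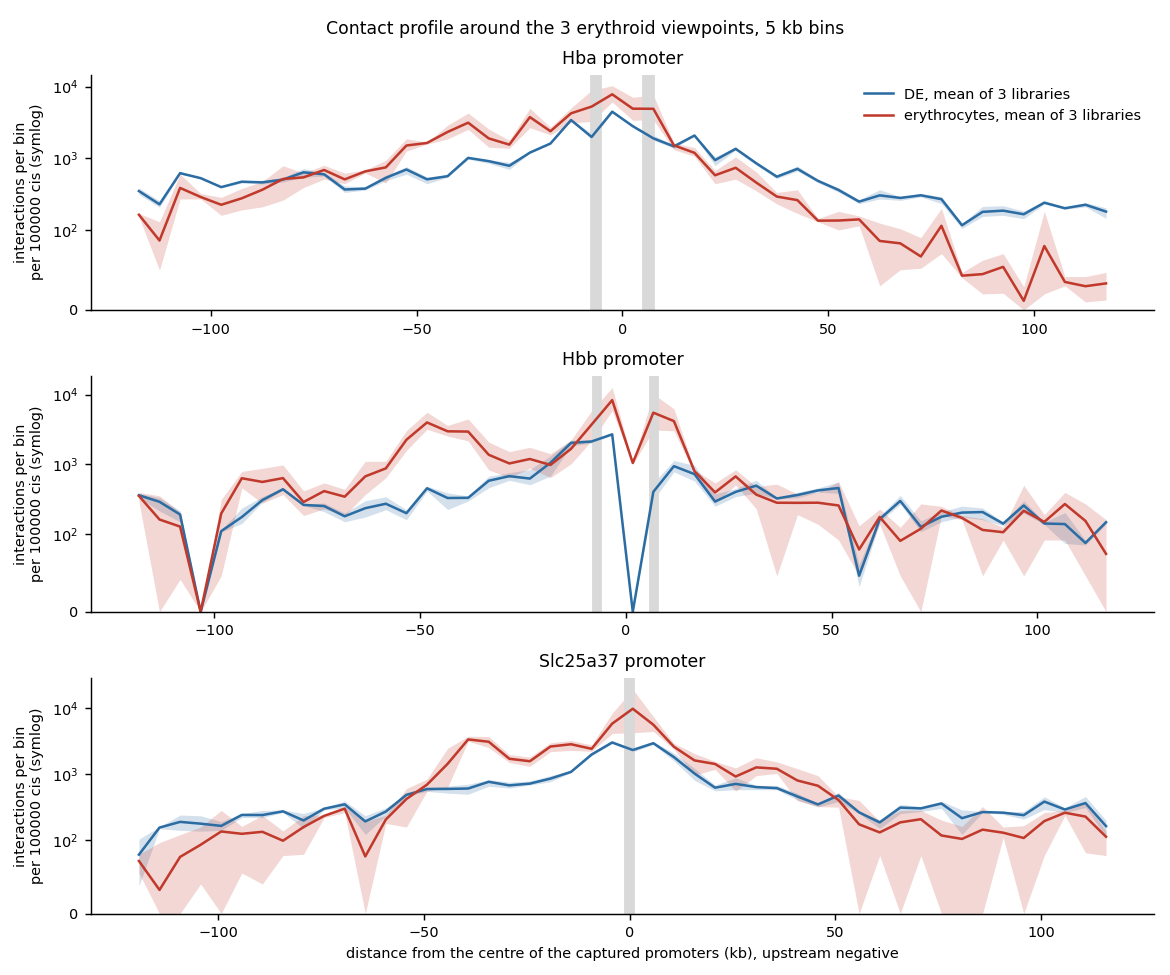
Contacts per 5 kb window per 100000 cis contacts (symlog axis) against distance in kb from the centre of the captured promoters of Hba, Hbb and Slc25a37, upstream negative, with lines for the means of 3 libraries, shading from the lowest to the highest library and grey bars for the captured zones. The erythrocyte line stands above that of DE upstream of each promoter, over Nprl3 at Hba, over the control region at Hbb and at the window 35.6 kb upstream at Slc25a37.

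Of the 12 listed genes around Slc25a37, 7 were higher in DE and 5 were not past the threshold, with a median of -1.17 against -0.79 over all windows, of which 33.5% were higher in DE. All 12 differences were negative, also by edgeR on the recovered reads. Loxl2, a lysyl oxidase-like enzyme, gave 2446, 2651 and 2271 in DE and 1008, 767 and 316 in erythrocytes (log2 -1.88 ± 0.38, adjusted p = 0.010). Stc1, the hormone stanniocalcin, gave 335, 283 and 338 against 41.4, 40.4 and 0, with 4 erythrocyte reads in all, and passed the filter only through DE (-2.30 ± 0.34, adjusted p = 0.0046). Pebp4 was at -1.66, Tnfrsf10b, a death receptor, at -1.36, R3hcc1 at -1.03 and Bin3 at -0.88. Chmp7, of the ESCRT-III family, was at -0.09 (adjusted p = 0.78). These calls depended on the setting, since TMM scaling kept past the threshold only Loxl2 and Stc1, and leaving out any 1 DE library cut the called windows from 75 to between 26 and 31.

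Eomes encodes a T-box factor required for endoderm. Its contacts in DE lay upstream, over the gene-poor stretch toward Cmc1 and Azi2, and the windows there were higher in DE, 16 of 16 from 20 to 100 kb and 61 of 76 from 100 to 500 kb, against 2 of 16 and 4 of 66 downstream. In the farther class, 5 of the 61 upstream and 4 of the 4 downstream windows were tested only through DE. Azi2, an adaptor that binds the kinase TBK1, gave 1886, 1887 and 1857 in DE and 403, 601 and 271 in erythrocytes, 4.41 times as much in DE (log2 -2.08 ± 0.25, adjusted p = 5.8e-05). Cmc1, of cytochrome c oxidase assembly, gave 3270, 3166 and 3177 against 1109, 1282 and 1135, 2.73 times as much (-1.41 ± 0.18, adjusted p = 5.9e-05). Both were far outside the spread of either cell type and were also called under TMM scaling (-1.33 and -0.63).

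Per kb, Azi2 was at 64.0 in DE and 14.5 in erythrocytes and Cmc1 at 37.7 and 13.8. The downstream neighbours were not past the threshold, with 39.3 and 41.4 per kb for the golgin gene Golga4 (log2 0.07 ± 0.18, adjusted p = 0.79) and 11.8 and 12.99 for the integrin gene Itga9 (0.13 ± 0.19, adjusted p = 0.62). Both were called higher in erythrocytes under TMM scaling (0.86 and 0.92). Of the 7 listed genes, 2 were higher in DE and 5 were not past the threshold, with a median of -0.49. Over all windows the median was -0.50 and 40.1% were higher in DE. Zcwpw2, Rbms3 and Ctdspl were not past the threshold at -0.20, -0.54 and -0.49. Over 20 kb away, the window with the largest difference toward DE was chr9:118095001-118100000 (464, 409 and 624 against 64.2, 120 and 24.7), in a run of 15 called windows between Eomes and Cmc1. The largest toward erythrocytes over 20 kb away, chr9:118620001-118625000 in Itga9, gave 36.3, 33.1 and 20.6 against 73.3, 200 and 197. It held 24 DE and 26 erythrocyte reads, and its DE mean of 30.0 was under 40, so it was tested only through erythrocytes.

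Foxa2, a forkhead factor of endoderm, had more of its DE contacts on the downstream side from 100 to 500 kb. In that class 33 of 46 downstream windows were higher in DE (13 of them tested only through DE) and 2 of 54 upstream (2 of them likewise). From 20 to 100 kb the sides were closer, with 13 of 16 downstream and 10 of 16 upstream windows higher in DE. At chr2:147670001-147675000 the signal was 712, 570 and 579 in DE and 29.9, 25.2 and 27.6 in erythrocytes, 22.5 times as much in DE with 5 erythrocyte reads in all (log2 -3.11 ± 0.26, adjusted p = 2.0e-05). This window had an erythrocyte mean of 27.6, under 40, so it was tested only through DE. It stood in a run of 17 called windows.

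Of the 8 listed genes of Foxa2 that passed the filter, 7 were higher in DE and 1 was not past the threshold, with a median of -1.39, and Insm1 was below the filter. Over all windows the median was -0.73 and 43.9% were higher in DE. Of the 7, Nkx2-4, Thbd and Cd93 had erythrocyte means under 40 and passed the filter only through DE. Pax1, a paired-box factor, gave 678, 802 and 724 in DE and 169, 252 and 27.6 in erythrocytes (-2.18 ± 0.42, adjusted p = 0.0019). Nkx2-2, a homeobox factor, gave 436, 526 and 645 against 69.7, 75.5 and 193 (-1.91 ± 0.32, adjusted p = 0.00088). Its neighbour Nkx2-4 had 84.7, 99.0 and 60.3 in DE and 0 in every erythrocyte library, at least 4.78-fold lower by the floor of 3 reads over the group. The exoribonuclease gene Xrn2 was at -2.23 and Ralgapa2, which acts on Ral GTPases, at -1.40. Thbd and Cd93, on the upstream side, were at -0.82 and -1.12, with 5 and 7 erythrocyte reads. Under TMM scaling only 2 of the 8 were called, Nkx2-4 (-1.08) and Xrn2 (-1.60), and Pax1 was at -1.36 (adjusted p = 0.085).

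Lhx1, a LIM homeobox factor, had the same arrangement as Eomes. Upstream, 16 of 16 windows from 20 to 100 kb and 47 of 69 from 100 to 500 kb were higher in DE, against 2 of 56 downstream from 100 to 500 kb. In the farther class, 9 of the 47 upstream and 2 of the 2 downstream windows were tested only through DE. The largest difference over 20 kb away was at chr11:84530001-84535000, with 726, 713 and 890 in DE and 74.5, 32.0 and 63.9 in erythrocytes, 13.7 times as much in DE (log2 -2.97 ± 0.28, adjusted p = 0.00016). It stood in a run of 44 called windows, the longest of the runs named here.

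Of the 14 listed genes of Lhx1 tested, 4 were higher in DE and 10 were not past the threshold, with a median of -0.56, and Tbx2 was below the filter. Over all windows the median was -0.62 and 34.9% were higher in DE. Mrm1, a methyltransferase of mitochondrial rRNA, gave 732, 933 and 738 in DE and 192, 160 and 95.8 in erythrocytes (-2.12 ± 0.28, adjusted p = 0.00047). Dhrs11, a dehydrogenase, gave 441, 619 and 555 against 53.2, 96.1 and 0 (-2.68 ± 0.40), and Ggnbp2 924, 868 and 1168 against 160, 192 and 160 (-2.23 ± 0.24, adjusted p = 0.00019). These 3 genes lie next to each other upstream and were also called under TMM scaling. Aatf, the nearest gene downstream, and the acetyl-CoA carboxylase gene Acaca were at -0.18 and -0.50 (adjusted p = 0.72 and 0.24).

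**Figure D5:**
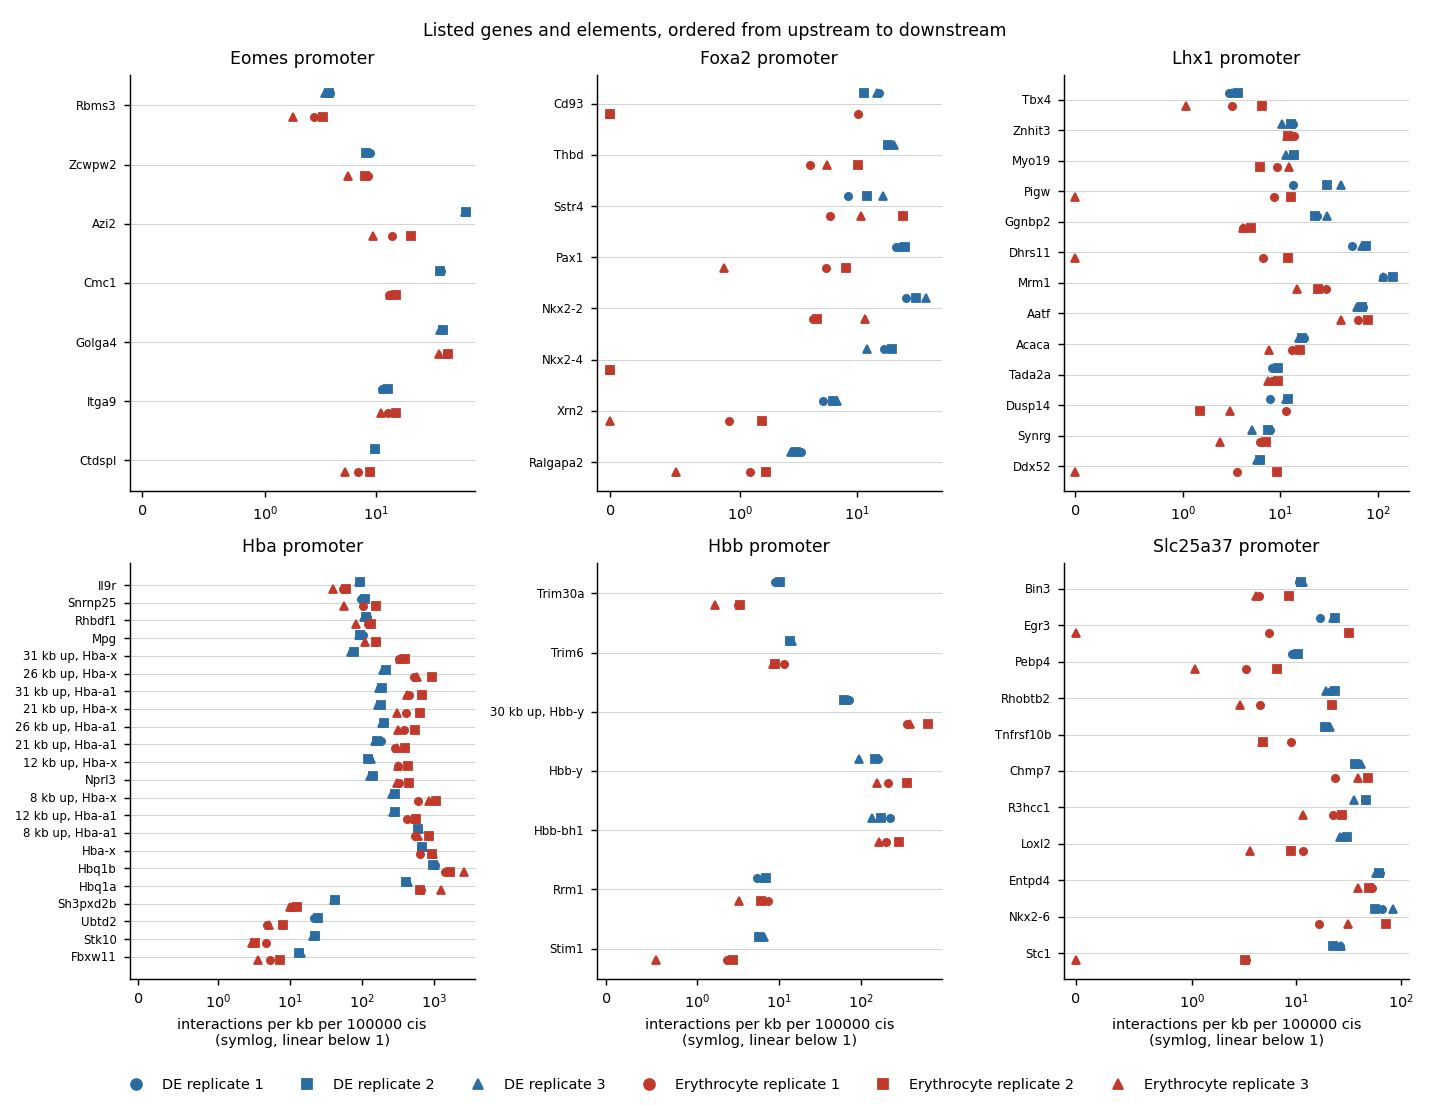
Contacts per kb per 100000 cis contacts (symlog axis, linear below 1) of the reported listed genes and elements of each viewpoint, from upstream to downstream, with 1 point per library. The erythrocyte points lie to the right of the DE points at Nprl3, the Hba-x elements and the control region upstream of Hbb-y, and to the left of them at Azi2, Pax1, Mrm1, Stk10 and Stc1.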

How the data were processed

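NG Capture-C of 3 erythrocyte and 3 DE libraries was analysed at 6 promoter viewpoints (36 columns; 54 of the columns in the files were not used). Per the processing notes of the submitters, Trim Galore, Bowtie and mm9 were used, without versions. For every library and viewpoint the authors deposited a signal per DpnII fragment that adds up to 100000 interactions. In 100% of cases the deposited signal was a whole multiple, to within 0.05, of the smallest step, which gave back the reads. Reads without molecular identifiers are not independent molecules, so intervals cover counting error only. The handling of duplicates is not given in the sources used here. Replicates differed by a chi-square over its degrees of freedom of 1.04 to 22.3. The pair at 1.04, DE replicates 1 and 2 at Hbb, stood at 1.85 at Lhx1, and no libraries were merged.

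Signal was summed in 5 kb windows and over listed genes (widened to at least 5 kb, without captured zones), scaled to 100000 cis contacts, and kept where the mean of the 2 group means was at least 40. limma (lmFit, eBayes with trend) on log2 of the value plus 50 was adjusted by Benjamini-Hochberg over the windows and listed regions of a viewpoint, with a threshold of 0.05. For shares, exact permutation tests over libraries were run, two-sided. Named were the listed genes and elements, and up to 3 windows in each direction per viewpoint with the largest change past the threshold, over 20 kb away, without overlap of libraries and at most 1 from a run. Of these only a part is described, and 2 of the listed genes are counted but not reported here. The members, lists and rules were chosen with earlier results of these data known. Alternatives were pseudocounts of 10 and 200, no filter, windows of 20 kb, single fragments, TMM and DESeq2 size factors, scaling to all contacts or to those beyond 20 kb, subtraction of the trans level, edgeR and DESeq2 on recovered reads, a replicate block and each replicate left out. Windows from Hba-x, the removal of fragments absent from DE and the flank shares were added after the data were seen. edgeR called 93, 91, 77, 165, 260 and 83 windows at Eomes, Foxa2, Lhx1, Hba, Hbb and Slc25a37. limma was tested on simulated data with 34 windows changed 4-fold at each viewpoint, and recovered 97.1%, 82.4%, 85.3%, 100%, 52.9% and 61.8% in the same order, with 2.94%, 0%, 6.45%, 0%, 5.26% and 4.55% of its calls false. The simulated libraries shared a common mean profile and a fixed dispersion, and as many windows rose as fell. They did not copy how the erythrocyte replicates differed or the shift of the median, so these shares need not hold for the calls here. Fits ran in DESeq2 1.42.0, edgeR 4.0.16 and limma 3.58.1 under R 4.3.3. Sums, shares and plots came from scipy 1.17.1, pandas 2.3.3, matplotlib 3.10.9 and numpy 2.4.6 under Python 3.11.15.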

Additional observations from a re-analysis of the deposited data

How the results depend on the processing

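The cause of the changes below was not tested. Without the filter on weak windows the number called was 5 at Eomes, 3 at Foxa2, 3 at Lhx1, 9 at Slc25a37 and 0 at Hba, where limma adjusted over 19286 windows (1084 at an unadjusted p under 0.05), while edgeR called 165 and DESeq2 164 of the filtered windows. Windows of 20 kb gave 42 at Eomes, 22 at Lhx1, 157 at Hbb and 119 at Slc25a37. TMM scaling gave 32 at Foxa2, 41 at Lhx1, 73 at Hba, 168 at Hbb and 37 at Slc25a37, and DESeq2 size factors gave 29, 42, 67, 155 and 27. Single fragments gave 92 at Hba (66 higher in erythrocytes and 26 in DE) and 82 at Hbb (78 and 4). At Slc25a37, a pseudocount of 10 gave 38, scaling beyond 20 kb 34 and DESeq2 on reads 40, and leaving out 1 replicate gave 26 to 88 (31, 26 and 30 without DE replicates 1, 2 and 3).

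Of listed genes and elements, TMM scaling called 5 at Eomes, 2 at Foxa2 and 2 at Slc25a37, a pseudocount of 10 called 4 at Slc25a37, scaling beyond 20 kb 4 at Foxa2 and 4 at Slc25a37, and scaling to all contacts 5 at Hba and 4 at Slc25a37. Leaving out 1 replicate gave 2 to 4 at Eomes (4 without erythrocyte replicate 2), 4 to 6 at Foxa2 (4 without DE replicate 1 or 2) and 2 to 10 at Slc25a37 (2 without any 1 DE replicate, 4 without erythrocyte replicate 1).

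Of the log2 differences below, which changed sign, only those of Mpg and Il9r were past the threshold as reported. Under TMM scaling they became 0.53 at Zcwpw2, 0.25 at Rbms3, 0.27 at Ctdspl, 0.74 at Aatf, 0.41 at Acaca, 0.36 at Myo19, 0.51 at Tbx4, 0.40 at Synrg, 0.74 at Tada2a, 1.03 at Snrnp25, 1.16 at Rhbdf1, 0.34 at Il9r, 0.59 at Rrm1, 0.37 at Trim6 and 0.18 at Chmp7. Scaled beyond 20 kb they became 0.15 at Aatf, 0.13 at Tbx4, 0.21 at Tada2a, 0.20 at Snrnp25, 0.28 at Rhbdf1, 0.059 at Rrm1, 0.00903 at Entpd4 and 0.26 at Chmp7. Scaled to all contacts they became -0.17 at Golga4, -0.11 at Itga9, -0.022 at Sstr4, -0.089 at Znhit3, -0.21 at Mpg, -0.49 at Hba-x, -0.65 at the 8 kb window of Hba-a1, -0.069 at Hbb-y and -0.56 at Hbb-bh1. A pseudocount of 10 gave -4.28e-05 at Sstr4, subtraction of the trans level 0.00603 at Snrnp25 and 0.073 at Rhbdf1, and edgeR -0.066 at Sstr4, 0.075 at Tbx4, 0.071 at Snrnp25 and 0.011 at Rhbdf1. With 1 replicate left out, the range crossed 0 at Sstr4 (-0.28 to 0.29), Aatf (-0.39 to 0.067), Znhit3 (-0.043 to 0.057), Tbx4 (-0.43 to 0.35), Synrg (-0.69 to 0.00063), Snrnp25 (-0.40 to 0.27), Rhbdf1 (-0.15 to 0.17), the 8 kb window of Hba-a1 (-0.072 to 0.24), Rrm1 (-0.35 to 0.065) and Chmp7 (-0.30 to 0.18).

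Of the share differences, with the total beyond 20 kb, Lhx1 from 500 kb to 2 Mb became 1.04 points and Slc25a37 at 10 Mb and farther 4.41. Over all contacts, Hba became -1.50 from 20 to 100 kb and -2.58 at 10 Mb and farther, and Hbb -1.88 from 2 to 10 Mb and -4.94 at 10 Mb and farther. With the trans level subtracted the last was -2.13. With 1 replicate left out, Lhx1 from 500 kb to 2 Mb ran from -2.14 to 0.351, Hbb from 2 to 10 Mb from -0.327 to 2.26 and the cis share of Lhx1 from -16.7 to 1.06.

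Replicate numbers did not pair the libraries (correlation of deviations -0.0759 to 0.115). With a replicate block 87, 85, 66, 175, 266 and 67 windows were called at Eomes, Foxa2, Lhx1, Hba, Hbb and Slc25a37. In the library with the fewest cis contacts, erythrocyte replicate 3 at Slc25a37, 1 read was worth 79.1 per 100000 cis contacts, above the filter of 40, so weak windows could not be measured in it. Simulated 4-fold changes were recovered least often at Hbb (52.9%) and Slc25a37 (61.8%), and the part of depth in this was not tested.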
